A study of Mus musculus with 30 samples.

Results

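The response of the mouse duodenum that fructose and dextrose have in common was measured as the mean of both sugar groups set against the control group. It rests on 15 RNA sequencing libraries, all of the duodenum libraries among the 30 of the series; the other 15 are from liver. The tested libraries are 5 labelled fructose and 5 labelled dextrose (the D form of glucose, the monomer of starch), and the controls are 5 libraries from mice on a corn starch diet. All mice are C57BL/6, with no transgene or other treatment named in the labels. Age, sex, dose, time on the diet and hour of collection are not given in the sources used here, nor is whether libraries of a group came from separate mice. The p-values therefore describe the spread among these libraries, which may be technical in part. Fructose libraries held 16519312 to 18699454 counts each, dextrose libraries 15473405 to 19850935 and control libraries 15656136 to 16916063.

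The duodenum is the first stretch of small intestine, where enterocytes, the absorptive cells of the lining, take up glucose through SLC5A1 and fructose through GLUT5, the product of Slc2a5. In the enterocyte, ketohexokinase, triokinase and other enzymes break fructose down to triose phosphates, which enter glycolysis or the synthesis of glucose and lipid. The same cells hold a large share of the conjugating and oxidising enzymes that act on food-borne compounds, and the lining keeps a low level of interferon-stimulated transcription against viruses.

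Markers of the tissue followed the label. The 10 enterocyte markers, among them villin and intestinal alkaline phosphatase, had a summed level of 33916 to 48580 CPM in fructose libraries, 35803 to 42141 CPM in dextrose libraries and 39892 to 43566 CPM in control libraries, where CPM are counts scaled by library total and a trimmed-mean (TMM) factor. Of them, the sucrase gene Sis passed the threshold upward and Fabp2 and Apoa4 downward. Of the other 21 marker lists, a single gene of 1 list passed, the tuft cell channel Trpm5, which was higher by 0.62 ± 0.17 (adjusted p = 0.0447), a call lost in 10 of 15 fits without a single library (highest adjusted p 0.124 without control 5) and without the 3 libraries described next (adjusted p = 0.288). Of the 20 others, the pancreatic acinar list had 0 members tested, and in the other 19 lists 0 genes passed edgeR's test; at an unadjusted p under 0.05 there were 10, and DESeq2 called 2. The 12 T and NK cell markers gave 0 log2 fold changes above 0, with a median of -0.46, and 0 past the threshold in edgeR's test or in DESeq2, with 2 at an unadjusted p under 0.05. Their summed level was 95.5 to 206 CPM in fructose libraries, 120 to 241 CPM in dextrose libraries and 149 to 403 CPM in control libraries. In whole tissue, fewer cells of a type and less RNA per cell cannot be told apart. A trio of libraries stood apart: pancreatic acinar markers summed to 61.7 CPM in fructose 3 and 152 CPM in control 3, against at most 0.937 elsewhere, and hepatocyte markers to 234 CPM in control 5, against at most 7.0 elsewhere. Changes of both sugars against control that lose their call without these 3 libraries are given with that value. For fructose minus dextrose of single genes and for some tissue differences it is not given.

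Of 13884 genes tested, 644 passed an adjusted p of 0.05 (4.64%), in edgeR's quasi-likelihood test with Benjamini-Hochberg adjustment. Of these, 375 were higher on the sugars (2.70% of genes tested) and 269 lower (1.94%), while 2095 genes had an unadjusted p under 0.05. The median size of a called change was 0.65 on the log2 scale; 101 genes were at least 2-fold higher and 79 at least 2-fold lower. With RLE factors 356 of 609 called genes were higher and with upper-quartile factors 356 of 671. With limma on log2(FPKM + 1), which changes both the scale and the test and understates the fold change of a low gene, 320 of 692 were higher. Without the 3 libraries 233 of 237 called genes were among the 644, 124 of the 237 being higher and 113 lower. Unless said otherwise, each change below is a log2 fold change ± SE from this fit, both sugars minus control with equal weight, and each level is in CPM. Counts of list members that rose or fell are to be read beside the shares of all genes, 2.70% higher and 1.94% lower.

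A stricter description needs no model. In 103 genes all 10 sugar libraries lay above all 5 controls (0.742% of genes tested), and in 91 all 10 lay below (0.655%); the 194 in all became 299 without control 4 and 357 without the 3 libraries, where fewer libraries have to be separated. The 10 largest rises and 10 largest falls among called genes with such a separation lead the account. None of these 20 lost its call in any alternative tried, apart from Fbp1 and Ugt2b5, which missed it when the sugar libraries were fitted as 1 group (adjusted p = 0.0675 for Fbp1 and 0.112 for Ugt2b5).

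**Figure D1:**
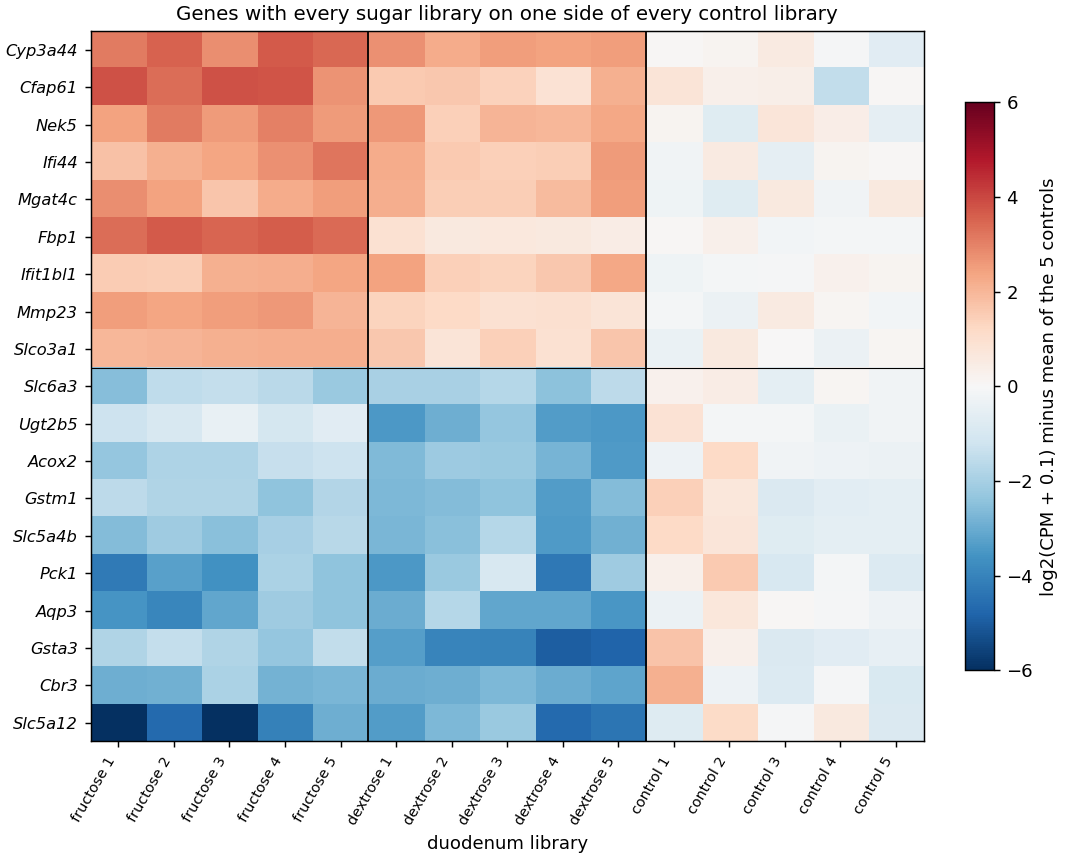
Levels of 9 of the 10 largest rises and of the 10 largest falls with all sugar libraries on the same side of all controls. Each row is a gene and each column a library, with fructose on the left, then dextrose, then control; the colour is log2(CPM + 0.1) minus the mean of the 5 controls. Cyp3a44, with a pooled log2 fold change of 2.88, heads the rises and Slc5a12, at -3.99, the falls; Fbp1 is far stronger in the fructose columns, Gsta3 and Ugt2b5 far paler there than in the dextrose columns.

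Genes of fructose uptake and breakdown rose in the mean of both sugars, and most of that rise came from fructose. Of 7 tested genes of this list 5 rose and 1 fell, with a median of 0.79 against -0.016 over all genes. Slc2a5 (ENSMUSG00000028976), the brush-border fructose transporter, had 2354, 2796, 2636, 2777 and 2241 CPM on fructose, 387, 443, 233, 374 and 239 on dextrose, and 268, 410.0, 333, 232 and 339 on control. All fructose libraries lay far above the rest, and dextrose and control libraries overlapped. Its pooled change of 1.55 ± 0.17 (adjusted p = 3.13e-05) was thus the mean of 3.02 ± 0.19 on fructose and 0.08 ± 0.18 on dextrose, comparisons that share the control libraries, as do all such pairs below. With the sugar libraries as 1 group the adjusted p was 0.15.

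Of the 7 genes of this list 5 passed upward on fructose and 0 downward, against 2 upward and 1 downward on dextrose. Over all genes tested 6.71% passed on fructose and 2.25% on dextrose, both directions together. Triokinase, Tkfc (ENSMUSG00000034371), which phosphorylates glyceraldehyde, had 3272, 3843, 3574, 3233 and 2689.6 CPM on fructose, 1445, 1253, 1346, 1238 and 1359.7 on dextrose, and 1022, 829, 792, 641 and 829 on control. Every dextrose library lay above every control, and every fructose library above every dextrose library. The pooled change was 1.35 ± 0.11 (adjusted p = 2.03e-06), with 2.01 ± 0.12 on fructose and 0.69 ± 0.12 on dextrose. Ketohexokinase, Khk, which commits fructose to this route, had 2324, 2646, 2304, 2769 and 2262 CPM on fructose, 1736, 1645, 1406, 1655 and 1302 on dextrose, and 1349, 1108, 1074, 1071 and 1045 on control, where control 1 lay above dextrose 5, so that the groups overlapped. It rose by 0.79 ± 0.09 (adjusted p = 5.88e-05), by 1.12 ± 0.11 on fructose and 0.46 ± 0.10 on dextrose. Aldh2, an aldehyde dehydrogenase, rose by 0.44 ± 0.11 (adjusted p = 0.0299), a call lost in 7 of 15 fits without a single library (highest adjusted p 0.0953 without control 3) and without the 3 libraries (adjusted p = 0.345). Its level was 668 to 755 CPM in fructose libraries, 313 to 381 in dextrose libraries and 264 to 510.2 in controls, which overlapped dextrose. Sord, which makes fructose from sorbitol, fell, with -0.40 ± 0.10 (adjusted p = 0.0309), a call lost in 7 of 15 fits without a single library (highest adjusted p 0.112 without control 2) and without the 3 (adjusted p = 0.0726). It had 331 to 511 CPM in fructose libraries, 261 to 333 in dextrose libraries and 401 to 537 in controls, of which fructose overlapped the controls and dextrose lay below them. The glycerate kinase gene Glyctk was the 1 member that did not pass. All 6 members past the threshold also differed between the sugars, and as 1 group 2 of the 7 passed, both upward.

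Other hexose carriers did not follow. Slc5a1, the sodium-glucose cotransporter, changed by 0.17 ± 0.15 (adjusted p = 0.665), and Slc2a2, the basolateral hexose exporter, by 0.03 ± 0.16 (adjusted p = 0.961), neither past the threshold. Slc5a4b, a relative of the glucose cotransporter, was among the largest falls. It had 31.5, 43.6, 34.2, 48.5 and 61.7 CPM on fructose, 28.6, 33.5, 59.6, 18.3 and 26.5 on dextrose, and 441, 322, 116, 129.9 and 129.9 on control, a pooled change of -2.57 ± 0.34 (adjusted p = 0.000419); all 10 sugar libraries lay below all controls, among which controls 1 and 2 were the highest. The glucose transporter Slc2a1 was higher by 0.43 ± 0.12 (adjusted p = 0.0445), a call lost in 12 of 15 fits without a single library (highest adjusted p 0.119 without control 3) and without the 3 libraries (adjusted p = 0.151). It changed by 0.84 ± 0.13 on fructose and 0.02 ± 0.14 on dextrose, where all dextrose libraries lay within the range of the controls, and as 1 group its adjusted p was 0.289.

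Sucrase-isomaltase, Sis (ENSMUSG00000027790), the brush-border enzyme that splits sucrose and starch fragments, rose with both sugars. Its levels were 7274, 8829, 8989.8, 11789 and 10042 CPM on fructose, 7112, 7094, 7547, 6982 and 7540.2 on dextrose, and 4656, 5573, 5449, 4646 and 5018 on control. No sugar library fell to the level of the highest control. The pooled change was 0.70 ± 0.10 (adjusted p = 0.000339), with 0.89 ± 0.11 on fructose and 0.52 ± 0.11 on dextrose; fructose minus dextrose was 0.37 ± 0.11 (adjusted p = 0.0813). Of the 11 brush-border hydrolases tested Sis was the 1 that rose, the maltase gene Mgam and the lactase gene Lct not passing, and Naaladl1, a dipeptidase-like protein, the 1 that fell, with -1.004 ± 0.17 (adjusted p = 0.00162).

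**Figure D2:**
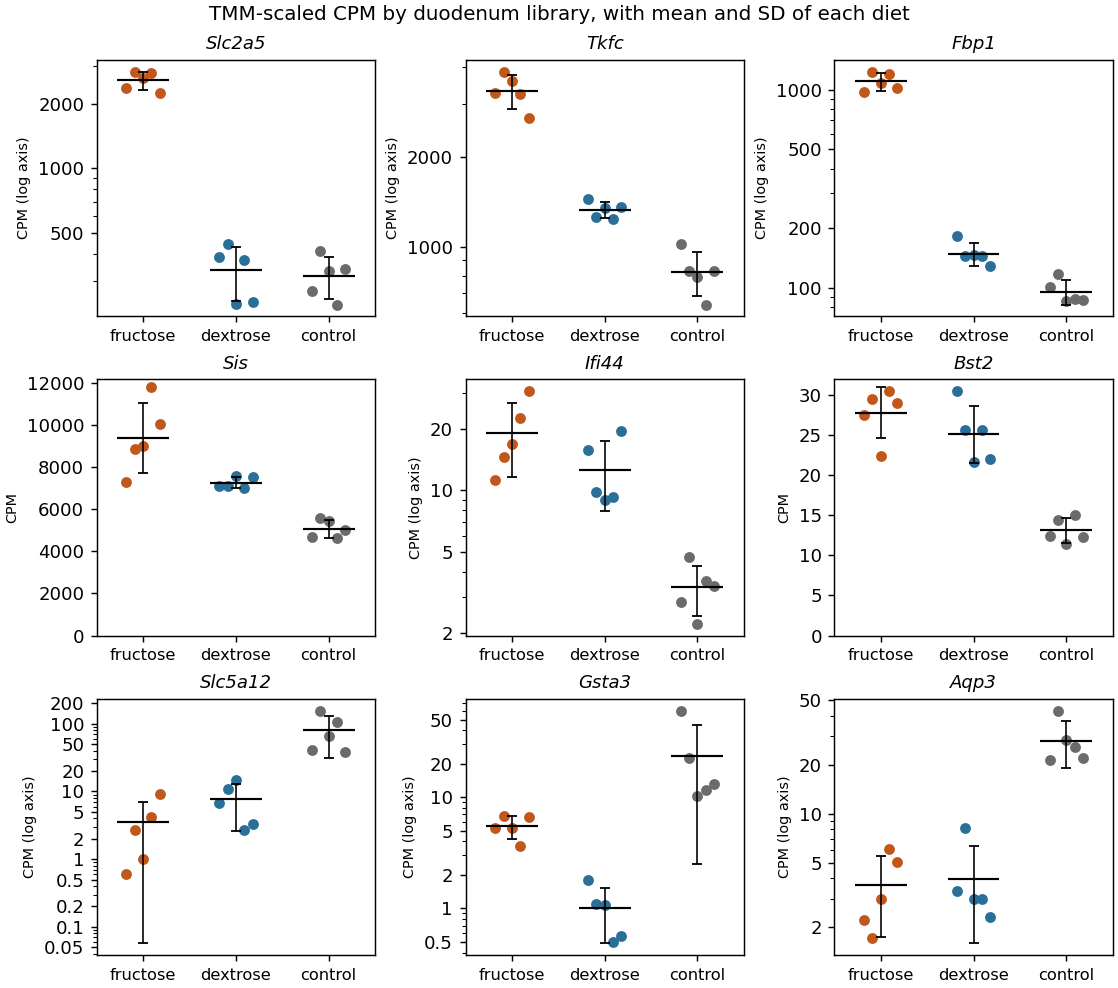
Level in CPM of 9 genes in each duodenum library, fructose left, dextrose in the middle, control right; points are libraries and bars the group mean with its SD (n = 5 each). Axes are logarithmic except for Sis and Bst2. In Sis, Ifi44 and Bst2 both sugar groups lie above every control, in Slc5a12, Gsta3 and Aqp3 below; in Slc2a5 the dextrose libraries lie among the controls.

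Many glycolytic genes rose in the mean of both sugars. Of 17 tested genes 9 rose and 0 fell, with a median of 0.42, where 2.70% of all genes rose and 1.94% fell. Without the 3 libraries 8 rose. On fructose alone 12 passed upward and on dextrose alone 4, with 0 downward on either. More genes passed on fructose over all genes too, 6.71% against 2.25% on dextrose, both directions together. By library, the median of the 17 genes relative to the control mean lay at 0.56 to 0.85 in fructose libraries, 0.21 to 0.30 in dextrose libraries and -0.29 to 0.26 in controls. Pklr, the pyruvate kinase of liver and gut, had 964, 1206, 1196, 1121 and 1041 CPM on fructose, 698, 572, 538, 525 and 711 on dextrose, and 410.2, 371, 389, 408 and 366 on control; the groups did not overlap, with dextrose between fructose and control. It rose by 1.08 ± 0.09 (adjusted p = 4.01e-06). Gpi1, which interconverts glucose-6-phosphate and fructose-6-phosphate, rose by 0.94 ± 0.09 (adjusted p = 1.19e-05), but the dextrose libraries (860 to 1034 CPM) overlapped the controls (593 to 904 CPM), and the adjusted p as 1 group was 0.0553. Of the 9 risen genes 8 also differed between the sugars. With the sugar libraries as 1 group, 5 of the 17 passed.

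In gluconeogenesis the members went opposite ways. Fbp1 (ENSMUSG00000069805), fructose-1,6-bisphosphatase, had 975, 1231, 1079, 1197 and 1017 CPM on fructose, 182, 144, 146, 144 and 129 on dextrose, and 102, 117, 86.1, 88.5 and 87.0 on control. Fructose libraries stood far above the rest, and the dextrose libraries lay just above the controls without overlap. Its pooled change was 2.07 ± 0.11 (adjusted p = 4.83e-09), with 3.52 ± 0.12 on fructose and 0.63 ± 0.11 on dextrose. Slc37a4, the glucose-6-phosphate carrier, rose by 0.50 ± 0.09 (adjusted p = 0.00294), and without the 3 libraries its adjusted p was 0.0971. G6pc, which releases free glucose, rose by 1.23 ± 0.31 (adjusted p = 0.0369). That call was lost in 11 of 15 fits without a single library (highest adjusted p 0.11 without control 3) and without the 3 libraries (adjusted p = 0.221). G6pc had 433 to 591 CPM in fructose libraries. The dextrose libraries, at 126 to 240 CPM, lay within the range of the controls, 47.1 to 264 CPM. Pck1, which makes phosphoenolpyruvate from oxaloacetate, fell. It had 13.1, 26.3, 19.89, 67.3 and 47.8 CPM on fructose, 23.3, 54.1, 130.4, 12.9 and 57.1 on dextrose, and 311, 750.0, 130.5, 230.3 and 143 on control, a change of -2.83 ± 0.54 (adjusted p = 0.00686), and control 2 was the highest library. Of 11 tested genes of the list 3 rose and 1 fell, with the 7 others not past the threshold.

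Targets of the carbohydrate-response factor ChREBP and lipogenic genes mostly did not pass: 2 of 17 rose and 1 fell. Pklr and Gpd1, which makes glycerol-3-phosphate, were the risen members, Gpd1 by 0.56 ± 0.10 (adjusted p = 0.00193) and with an adjusted p of 0.134 as 1 group. Txnip, a brake on glucose uptake that ChREBP induces, had 96.7 ± 14.4 CPM on fructose, 144 ± 21.0 on dextrose and 127 ± 33.6 on control (SD, n = 5 each) and a pooled change of -0.11 ± 0.14 (adjusted p = 0.799). Fasn, fatty acid synthase, and Acly, ATP citrate lyase, each changed by 0.11 and did not pass. Me1, malic enzyme, fell, with -1.55 ± 0.33 (adjusted p = 0.013), and almost all of that was dextrose: it had 41.7, 39.3, 41.2, 24.2 and 38.2 CPM on fructose, 9.43, 5.80, 2.31, 2.84 and 4.51 on dextrose, and 68.1, 58.3, 30.7, 21.2 and 19.7 on control. All fructose libraries lay within the range of the controls, while all dextrose libraries lay below them, and as 1 group the adjusted p was 0.634. In the 20 genes of cholesterol synthesis and uptake 0 rose and 0 fell by edgeR, with 3 at an unadjusted p under 0.05 and 1 called by DESeq2.

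Interferon-stimulated genes were higher on both sugars. Of 39 tested members 23 rose (59.0%, against 2.70% of all genes) and 0 fell, all 39 had a positive log2 fold change, and the median was 0.64. The median was 0.71 on fructose and 0.65 on dextrose. Of the 23 risen members 0 also passed for fructose minus dextrose, which does not show that the sugars acted alike in them. By library the median of the 39 genes relative to the control mean lay at 0.27 to 0.92 in fructose libraries, 0.38 to 0.89 in dextrose libraries and -0.19 to 0.31 in controls; fructose 1 lay below control 4 and every other sugar library above all controls. Without the 3 libraries 6 of 39 passed, while the median was 0.56. Leaving out single libraries gave 18 to 31 risen members.

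Ifi44 (ENSMUSG00000028037), an interferon-induced protein, rose most in the list. It had 11.3, 14.6, 16.9, 22.5 and 30.6 CPM on fructose, 15.7, 9.84, 8.98, 9.26 and 19.5 on dextrose, and 2.83, 4.70, 2.22, 3.60 and 3.40 on control. The lowest sugar library, dextrose 3, lay above the highest control, and fructose 5 was the highest. The change was 2.21 ± 0.28 (adjusted p = 0.00013). Bst2, tetherin, which holds budding virus at the cell surface, had 27.6, 29.5, 22.5, 30.5 and 29.0 CPM on fructose, 30.5, 25.6, 21.7, 25.6 and 22.0 on dextrose, and 12.4, 14.4, 11.4, 15.1 and 12.3 on control, with narrow groups and no overlap between sugars and control. It rose by 1.01 ± 0.10 (adjusted p = 1.86e-05). Ifit1, which binds viral RNA, had 82.2, 125, 141, 141 and 156 CPM on fructose, 148, 122, 96.7, 97.6 and 106 on dextrose, and 44.9, 55.4, 43.2, 67.4 and 60.1 on control and rose by 1.16 ± 0.15 (adjusted p = 0.000176), again with every sugar library above every control. Its relative Ifit1bl1 had 224, 215, 335, 354 and 400.0 CPM on fructose, 411, 211, 195, 238 and 385 on dextrose, and 63.9, 70.7, 74.2, 93.4 and 87.9 on control and rose by 1.93 ± 0.21 (adjusted p = 5.21e-05). In the order of tested genes along chromosome 19, Ifit2, Ifit3, Ifit1bl1, Ifit3b, Ifit1bl2 and Ifit1 follow each other and all 6 rose, by 0.57 to 1.93; these are similar copies among which reads can be shared. Without the 3 libraries the adjusted p was 0.0776 for Ifit3 and 0.24 for Ifit3b. On chromosome 16 the neighbours Parp14, Dtx3l and Parp9 rose by 0.57 to 0.73, with an adjusted p without the 3 libraries of 0.0684 for Parp14 and 0.068 for Dtx3l.

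The members differed in size and in how firmly they passed. Usp18, which removes the ubiquitin-like ISG15 from proteins, rose by 1.16 ± 0.19 (adjusted p = 0.00109) and Oas2, an RNA-activated oligoadenylate synthetase, by 1.42 ± 0.27 (adjusted p = 0.00506). Isg15 itself had 37.1, 54.1, 82.2, 89.8 and 78.5 CPM on fructose, 88.9, 63.9, 42.9, 57.2 and 53.2 on dextrose, and 26.9, 31.5, 27.0, 39.8 and 32.4 on control, where fructose 1 lay below control 4; it rose by 1.03 ± 0.20 (adjusted p = 0.0068). Rsad2, viperin, had 18.9, 29.0, 47.2, 24.7 and 35.1 CPM on fructose, 21.5, 19.5, 22.5, 13.3 and 15.4 on dextrose, and 8.49, 6.96, 8.69, 16.2 and 12.4 on control, where dextrose 4 and dextrose 5 lay within the range of the controls; it rose by 1.176 ± 0.23 (adjusted p = 0.00673). The choice of these 4 and of the genes that follow came after the values had been seen. The adjusted p without the 3 libraries was 0.0265 for Usp18, 0.107 for Oas2, 0.121 for Isg15 and 0.0612 for Rsad2. The RNA sensors Ddx58 and Ifih1 changed by 0.28 and 0.36 and the transducer Stat2 by 0.42, none past the threshold.

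A related group, GTPases and chemokines induced by interferon gamma, had 3 of 17 members higher and 0 lower. Irgm1, which acts on vacuoles that hold microbes, rose by 0.86 ± 0.12 (adjusted p = 0.000244), Gbp3 by 0.84 ± 0.15 (adjusted p = 0.00255) and Igtp by 0.86 ± 0.17 (adjusted p = 0.00527); without the 3 libraries the adjusted p was 0.0599 for Gbp3 and 0.107 for Igtp. Cxcl9 and Cxcl10, the chemokines of that response, changed by -0.06 and 0.51 and did not pass. Of 15 genes of MHC class I presentation 0 passed in edgeR's test, with 2 at an unadjusted p under 0.05 and 1 called by DESeq2. Of 10 of MHC class II presentation 0 passed in edgeR's test or in DESeq2, with 2 at an unadjusted p under 0.05. The part of T and NK cell content, whose values are given above, in these changes was not tested.

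Promoters of the interferon list were searched for an interferon-response element, the letters GAAANNGAAA or, on the other strand, TTTCNNTTTC. RefSeq's 300 bases around each start (250 before, 50 after; build GRCm38.p6) were on hand for 29 of the 39 tested members, and 14 of them held a match (48.3%), against 1079 of 27025 genes in the promoter table (3.99%). Among members past the threshold 7 of 16 held a match (43.8%), and among members not past it 7 of 13 (53.8%). A match is a description of letters, not a shown binding site. The promoters of Bst2 (chr8:71537423-71537722, minus strand), Ifit1 (chr19:34640639-34640938, plus strand), Isg15 (chr4:156200769-156201068, minus strand) and Rsad2 (chr12:26456403-26456702, minus strand) are shown because these are risen members with a match. They read along the gene's own strand, 5′ to 3′, and capitals mark every match; in Bst2 and Isg15 consecutive matches overlap and form an unbroken run.
Bst2: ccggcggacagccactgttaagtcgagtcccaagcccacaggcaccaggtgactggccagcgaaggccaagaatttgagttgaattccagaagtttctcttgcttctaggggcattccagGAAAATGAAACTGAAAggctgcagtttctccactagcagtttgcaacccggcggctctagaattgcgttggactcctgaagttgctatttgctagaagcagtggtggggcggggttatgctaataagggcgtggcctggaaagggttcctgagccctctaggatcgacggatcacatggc
Ifit1: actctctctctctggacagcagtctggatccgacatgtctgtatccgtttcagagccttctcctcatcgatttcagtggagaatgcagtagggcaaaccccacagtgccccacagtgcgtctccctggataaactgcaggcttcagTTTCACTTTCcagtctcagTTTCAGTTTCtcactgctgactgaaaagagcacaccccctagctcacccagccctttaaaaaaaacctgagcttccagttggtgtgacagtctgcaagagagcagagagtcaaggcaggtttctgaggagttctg
Isg15: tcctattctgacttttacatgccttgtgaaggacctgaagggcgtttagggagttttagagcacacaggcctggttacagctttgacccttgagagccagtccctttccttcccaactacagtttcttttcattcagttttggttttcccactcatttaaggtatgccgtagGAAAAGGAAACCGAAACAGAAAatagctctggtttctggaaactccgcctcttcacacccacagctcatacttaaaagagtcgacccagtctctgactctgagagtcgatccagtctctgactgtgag
Rsad2: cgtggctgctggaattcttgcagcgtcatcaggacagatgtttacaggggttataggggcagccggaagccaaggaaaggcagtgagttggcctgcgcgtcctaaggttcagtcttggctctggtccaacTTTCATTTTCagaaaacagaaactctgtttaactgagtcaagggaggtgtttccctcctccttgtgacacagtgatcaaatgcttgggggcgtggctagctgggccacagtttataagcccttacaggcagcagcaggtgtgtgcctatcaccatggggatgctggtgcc
The first matches begin 130 bases before the start in Bst2, 104 in Ifit1, 78 in Isg15 and 120 in Rsad2.

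The largest rise had no place in the groups above. Cyp3a44 (ENSMUSG00000054417), a cytochrome of the Cyp3a family of drug-oxidising enzymes, had 65.0, 89.2, 52.9, 98.7 and 81.6 CPM on fructose, 50.3, 35.7, 42.9, 39.9 and 43.4 on dextrose, and 7.80, 8.39, 10.8, 7.03 and 4.70 on control. The lowest sugar library stood more than 3-fold above the highest control. It changed by 2.88 ± 0.19 (adjusted p = 1.94e-07), with 3.32 ± 0.20 on fructose and 2.45 ± 0.20 on dextrose. Its relatives Cyp3a11, Cyp3a13, Cyp3a25 and Cyp3a59 changed by -0.40 to 0.09 and did not pass; reads can be shared among these copies. Cfap61, a protein of motile cilia, rose by 2.82 ± 0.43 (adjusted p = 0.000695) from a low level, at 1.67 to 3.81 CPM in fructose libraries, 0.398 to 1.13 in dextrose libraries and 0 to 0.377 in controls.

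Among the other large rises, Nek5, a NIMA-related kinase, had 6.95, 11.3, 7.70, 10.8 and 7.81 CPM on fructose, 7.98, 3.48, 5.30, 5.22 and 6.48 on dextrose, and 1.38, 0.714, 2.09, 1.63 and 0.803 on control, all sugar libraries lying above all controls. It changed by 2.42 ± 0.26 (adjusted p = 3.18e-05). Some of its neighbours on chromosome 8 passed as well: Nek3 by 0.72 ± 0.14 (adjusted p = 0.00444), with an adjusted p of 0.0776 without the 3 libraries, and Vps36, of the endosomal sorting machinery, by 0.85 ± 0.08 (adjusted p = 1.19e-05), while Ckap2, which lies between these neighbours, at 0.37 ± 0.20 (adjusted p = 0.411), did not pass. Beyond Vps36 lies Thsd1, with a mean of 0.516 CPM, which was higher by 1.72 ± 0.41 (adjusted p = 0.0205), a call lost in 3 of 15 fits without a single library (highest adjusted p 0.067 without control 3) and without the 3 libraries (adjusted p = 0.147). On the other side Alg11, next to Nek5, changed by 0.27 (adjusted p = 0.413) and did not pass, and Atp7b was higher by 0.30 ± 0.08 (adjusted p = 0.0386), a call lost in 13 of 15 fits without a single library (highest adjusted p 0.139 without control 3) and without the 3 libraries (adjusted p = 0.292). Whether reads of overlapping genes were told apart by strand is not given in the sources used here. Mgat4c, a glycosyltransferase, rose by 2.17 ± 0.29 (adjusted p = 0.000167). Slco3a1, an organic anion transporter, had 27.5, 28.4, 29.9, 30.5 and 30.9 CPM on fructose, 20.6, 11.7, 18.5, 12.7 and 21.5 on dextrose, and 5.16, 10.1, 6.90, 5.29 and 7.29 on control and rose by 1.68 ± 0.17 (adjusted p = 1.86e-05). Mmp23, a metalloproteinase, rose by 1.72 ± 0.15 (adjusted p = 5.27e-06), by 2.40 ± 0.17 on fructose and 1.04 ± 0.17 on dextrose.

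The largest fall was in monocarboxylate transport. Slc5a12 (ENSMUSG00000041644), a sodium-coupled lactate carrier of the apical membrane, had 0.607, 2.65, 1.02, 4.22 and 9.24 CPM on fructose, 6.86, 10.9, 14.8, 2.74 and 3.32 on dextrose, and 41.1, 157, 66.3, 107 and 38.4 on control. Controls varied widely among themselves and all lay above every sugar library. The change was -3.99 ± 0.52 (adjusted p = 0.000399). Of 10 tested carriers of this kind or their partners 2 rose and 3 fell: Slc16a9 fell, with -1.99 ± 0.49 (adjusted p = 0.0309), a call lost in 10 of 15 fits without a single library (highest adjusted p 0.105 without control 5), as did Slc16a5, with -0.59 ± 0.12 (adjusted p = 0.00849), and the lactate exporter Slc16a3 rose by 0.70 ± 0.11 (adjusted p = 0.000938), by 1.177 ± 0.13 on fructose and 0.23 ± 0.13 on dextrose (adjusted p = 0.000191 for fructose minus dextrose). The lactate carrier Slc16a1 rose by 0.46 ± 0.12 (adjusted p = 0.0423), a call lost in 12 of 15 fits without a single library (highest adjusted p 0.0859 without control 5). Without the 3 libraries the adjusted p was 0.144 for Slc16a9, 0.158 for Slc16a5 and 0.167 for Slc16a1, and as 1 group it was 0.104 for Slc16a3.

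Many conjugating enzymes fell. These attach glutathione, glucuronic acid or sulphate to foreign compounds. Of 31 tested 13 fell, where 1.94% of all genes did, and 1, Gstm5, rose, with a median of -0.56; without the 3 libraries 12 fell. Gsta3 (ENSMUSG00000025934), a glutathione transferase, had 5.30, 6.75, 5.24, 3.62 and 6.68 CPM on fructose, 1.78, 1.10, 1.06, 0.498 and 0.563 on dextrose, and 60.4, 22.7, 10.2, 11.5 and 13.2 on control. All 10 sugar libraries lay below all controls, the dextrose libraries were below all fructose libraries, and control 1 was far above the other controls. Its change was -3.34 ± 0.39 (adjusted p = 0.00012), with -2.09 ± 0.46 on fructose and -4.58 ± 0.54 on dextrose. Gstm1 had 54.2, 46.9, 46.4, 30.1 and 47.8 CPM on fructose, 24.6, 26.6, 30.01, 16.0 and 26.6 on dextrose, and 431, 257, 90.0, 105 and 108 on control, with controls 1 and 2 the highest, and fell, with -2.57 ± 0.32 (adjusted p = 0.000265). Its neighbours Gstm3, Gstm2 and Gstm4 on chromosome 3 fell as well in the mean of both sugars, with changes of -0.81 to -1.32. In Gstm2 that fall came from dextrose. It had 12.2 to 23.6 CPM in fructose libraries, which overlapped the controls at 10.8 to 21.3 CPM. Its dextrose libraries, at most 7.64 CPM, lay below both. Without the 3 libraries the adjusted p of Gstm2 was 0.0997. Ugt2b5, a glucuronosyltransferase, had 26.4, 32.6, 46.2, 29.9 and 38.8 CPM on fructose, 5.67, 8.13, 12.4, 5.97 and 5.58 on dextrose, and 113, 57.2, 57.0, 48.1 and 54.2 on control, lower on dextrose than on fructose in every library, and a pooled change of -2.03 ± 0.21 (adjusted p = 4.2e-05). Mgst2, a microsomal transferase, fell, with -1.14 ± 0.10 (adjusted p = 6.21e-06). Of the 14 called genes 7 differed between the sugars, and with the sugar libraries as 1 group 8 of the 31 fell. These are families of similar copies, in which the counting could have split reads.

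Oxidising and reducing enzymes of the same field moved alike, with 10 of 24 lower and 1, Cyp3a44, higher; without the 3 libraries 6 were lower, and as 1 group 4. Cbr3, a carbonyl reductase, had 0.607, 0.634, 1.34, 0.670 and 0.715 CPM on fructose, 0.593, 0.611, 0.749, 0.597 and 0.507 on dextrose, and 23.4, 4.28, 2.96, 5.06 and 2.78 on control. All sugar libraries lay below all controls, fructose 3 was the highest of them, and control 1 stood well above the other controls. It changed by -3.45 ± 0.43 (adjusted p = 0.000138). Its paralog Cbr1 fell less, with -0.80 ± 0.11 (adjusted p = 0.000276). Akr1b8, an aldo-keto reductase, fell, with -2.48 ± 0.49 (adjusted p = 0.00906), and its adjusted p was 0.0634 as 1 group. It had 7.06, 3.81, 4.97, 3.68 and 7.51 CPM on fructose, 2.51, 0.855, 1.12, 2.14 and 1.24 on dextrose, and 49.1, 16.6, 5.24, 4.95 and 5.93 on control, where controls 3 to 5 lay within the range of fructose and controls 1 and 2 above it; without control 1 the change was -1.49. Of 11 carboxylesterases, which hydrolyse esters, 4 fell and 2 rose: Ces1f fell, with -1.19 ± 0.17 (adjusted p = 0.000476), and Ces2c, with -0.69 ± 0.14 (adjusted p = 0.0068), while Ces1d was higher by 0.82 ± 0.19 (adjusted p = 0.0175), a call lost in 2 of 15 fits without a single library (highest adjusted p 0.0627 without control 3) and without the 3 libraries (adjusted p = 0.275). Over all genes tested 1.94% fell and 2.70% rose. As 1 group 2 of the 11 fell, and the adjusted p of Ces1f was 0.296. Ces1f had 141 to 190 CPM in fructose libraries, 37.7 to 69.5 in dextrose libraries and 143 to 318 in controls. Fructose thus overlapped the controls and dextrose lay below them.

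Targets of NRF2, the transcription factor of the antioxidant response, overlapped with these. Of 20 tested 8 fell and 1 rose, with a median of -0.22, where 1.94% of all genes fell and 2.70% rose. Gclc, the catalytic subunit of glutathione synthesis, had 27.5, 26.0, 27.9, 23.4 and 28.7 CPM on fructose, 18.2, 21.5, 29.9, 18.5 and 18.5 on dextrose, and 47.9, 65.2, 37.9, 54.8 and 55.0 on control and fell, with -1.13 ± 0.12 (adjusted p = 3.11e-05). Every sugar library lay below every control, and dextrose 3 was far above the other dextrose libraries. Nqo1, a quinone reductase, had 27.5, 26.2, 28.9, 25.5 and 24.3 CPM on fructose, 17.3, 18.8, 15.3, 14.1 and 10.98 on dextrose, and 61.6, 42.7, 28.4, 41.5 and 34.4 on control, where fructose 3 lay above control 3. It fell, with -1.05 ± 0.14 (adjusted p = 0.000219), with -0.65 ± 0.17 on fructose and -1.45 ± 0.17 on dextrose (adjusted p = 0.0143 for fructose minus dextrose). Ugdh, which makes UDP-glucuronic acid, fell, with -0.70 ± 0.09 (adjusted p = 0.000127). Not all targets moved: Txnrd1, Srxn1 and Hmox1, which are classical members, changed by -0.06, 0.03 and -0.17 and did not pass. Fth1, a ferritin chain, was the member that rose, by 0.58 ± 0.10 (adjusted p = 0.00204). Nfe2l2, which encodes NRF2 itself, changed by 0.41 ± 0.10 (adjusted p = 0.0299), a call lost in 7 of 15 fits without a single library (highest adjusted p 0.0985 without control 5) and without the 3 libraries (adjusted p = 0.297); it was looked up after the values were seen.

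Promoters were searched for the antioxidant-response core TGACNNNGC or its complement GCNNNGTCA. Matches were in 9 of 17 NRF2 targets with an entry (52.9%), in 3 of 28 conjugating enzymes (10.7%) and in 3781 of 27025 genes (13.99%). Of NRF2 targets past the threshold 4 of 7 held a match (57.1%), and of those not past 5 of 9 (55.6%). The promoters of Gsta3 (chr1:21240335-21240634, plus strand) and Me1 (chr9:86695865-86696164, minus strand) are shown as examples of fallen genes of these lists that hold a match and were lower on dextrose than on fructose in every library; capitals mark the match, which begins 121 bases before the start in Gsta3 and 6 in Me1.
Gsta3: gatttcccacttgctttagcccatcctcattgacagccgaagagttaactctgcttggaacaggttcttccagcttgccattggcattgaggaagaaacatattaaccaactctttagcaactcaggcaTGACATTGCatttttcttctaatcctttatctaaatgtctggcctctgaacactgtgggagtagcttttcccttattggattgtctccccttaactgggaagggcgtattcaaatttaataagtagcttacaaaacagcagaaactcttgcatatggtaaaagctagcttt
Me1: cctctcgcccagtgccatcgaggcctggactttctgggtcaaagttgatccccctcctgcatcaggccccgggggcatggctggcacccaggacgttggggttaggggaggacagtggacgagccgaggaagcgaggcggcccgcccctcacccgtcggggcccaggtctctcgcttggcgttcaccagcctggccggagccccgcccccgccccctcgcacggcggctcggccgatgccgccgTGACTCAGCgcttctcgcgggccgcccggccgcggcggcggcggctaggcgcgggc

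**Figure D3:**
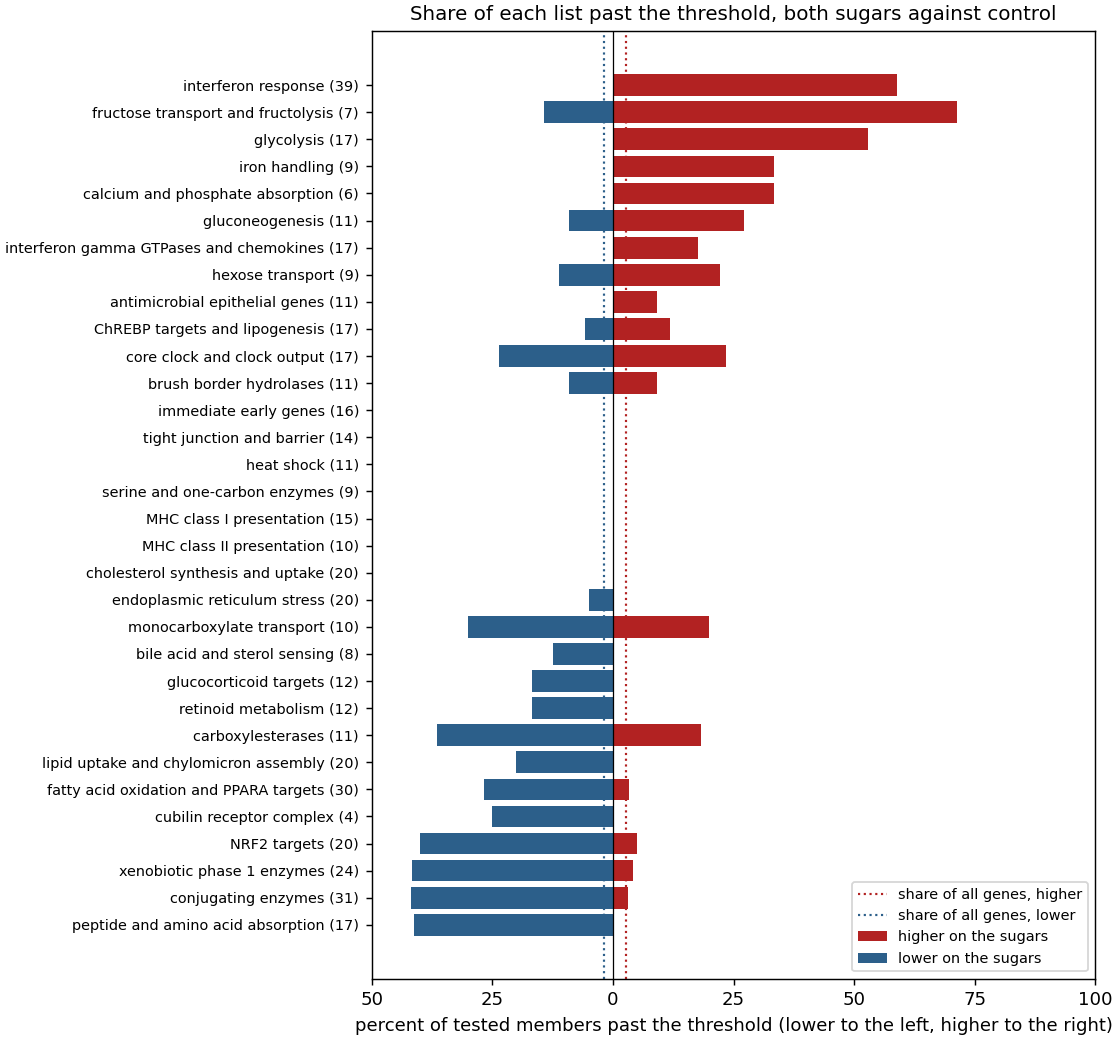
Share of each gene list past the threshold, in percent of its tested members, with members higher on the sugars to the right of 0 and lower to the left; dotted lines mark the shares over all genes tested, 2.70% higher and 1.94% lower. Interferon response (23 of 39 higher) and glycolysis (9 of 17 higher) reach right, conjugating enzymes (13 of 31 lower) and xenobiotic phase 1 enzymes (10 of 24 lower) left.

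Lipid genes fell in part. Of 30 genes of fatty acid oxidation and PPARA targets 8 fell and 1 rose, with a median of -0.33. Of all genes 1.94% fell and 2.70% rose. Without the 3 libraries 8 of the list fell. When fructose 2, control 1 or control 2 was left out, 4 fell. Cyp4a10, a fatty acid hydroxylase and classical PPARA target, fell, with -2.75 ± 0.38 (adjusted p = 0.000279). The peroxisomal enzymes Hsd17b4 and Acaa1a fell, with -0.61 ± 0.10 (adjusted p = 0.00151) for Hsd17b4 and -0.69 ± 0.12 (adjusted p = 0.00157) for Acaa1a. Acox2, a peroxisomal oxidase of branched chains and bile acid precursors that is not on the list, was among the largest falls. It had 2.15, 3.06, 2.99, 4.15 and 4.65 CPM on fructose, 1.71, 2.38, 2.31, 1.54 and 0.957 on dextrose, and 8.87, 25.4, 9.67, 8.89 and 8.71 on control, with control 2 far above the other controls, and a change of -2.32 ± 0.27 (adjusted p = 5.05e-05). Cpt1a, the gate of mitochondrial uptake, changed by -0.30 and did not pass the threshold. The direct repeat of AGGNCA after 1 free base, searched on both strands, was in 0 of 23 promoters of the list and 122 of 27025 in all (0.451%). With so rare a repeat and so few promoters, 0 matches cannot tell the list from all promoters.

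Of 20 genes of lipid uptake and chylomicron assembly 4 fell and 0 rose, where 1.94% of all genes fell and 2.70% rose. Cd36, a fatty acid translocase, had 34.6, 40.8, 29.6, 41.3 and 49.4 CPM on fructose, 19.4, 31.5, 26.1, 21.2 and 28.5 on dextrose, and 91.7, 189, 77.3, 85.8 and 67.2 on control. All sugar libraries lay below all controls, with control 2 the highest. It fell, with -1.70 ± 0.20 (adjusted p = 0.00012). Fabp2, the intestinal fatty acid binding protein, had 1650.0, 1756, 2026, 2866 and 2420.1 CPM on fructose, 1968, 2289, 2012, 1926 and 1361 on dextrose, and 4106, 4161, 4260.0, 6689.7 and 3454 on control and fell, with -1.16 ± 0.16 (adjusted p = 0.000185), again without overlap. Apoa4, a chylomicron apolipoprotein, fell, with -0.71 ± 0.14 (adjusted p = 0.00622) (adjusted p = 0.0769 without the 3 libraries). Scarb1, a receptor for high-density lipoprotein, fell, with -1.93 ± 0.40 (adjusted p = 0.0119); it changed by -3.03 ± 0.52 on fructose and -0.84 ± 0.47 on dextrose (adjusted p = 0.0289 for fructose minus dextrose), with an adjusted p of 0.107 without the 3 libraries and 0.245 as 1 group. The core of chylomicron assembly did not pass, Mttp at -0.08 and Apob at 0.21.

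Genes of peptide and amino acid absorption fell in part. Of 17 tested genes 7 fell and 0 rose, with a median of -0.42, where 1.94% of all genes fell and 2.70% rose. Without the 3 libraries 0 fell, with a median of -0.37, and as 1 group 1 fell. On fructose alone 10 passed downward and on dextrose alone 0, where 6.71% and 2.25% of all genes passed in either direction. Of the 7 fallen genes 4 also differed between the sugars. Slc6a19, the neutral amino acid transporter, fell, with -0.92 ± 0.17 (adjusted p = 0.004), and the aminopeptidase Enpep, with -1.01 ± 0.20 (adjusted p = 0.00756). Slc16a10, an aromatic amino acid carrier, fell, with -0.60 ± 0.12 (adjusted p = 0.00527). Their adjusted p without the 3 libraries was 0.1 for Slc6a19, 0.0561 for Enpep and 0.0775 for Slc16a10. The peptide transporter Slc15a1 fell, with -0.68 ± 0.14 (adjusted p = 0.0103) and an adjusted p of 0.123 without the 3. By library the median of the 17 genes relative to the control mean lay at -1.02 to -0.33 in fructose libraries, -0.36 to -0.02 in dextrose libraries and -0.30 to 0.32 in controls.

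Carriers of minerals and vitamins gave less firm calls. Slc34a2, a phosphate cotransporter, was higher by 2.69 ± 0.65 (adjusted p = 0.0305). Of the list drawn up for iron handling, Cybrd1 (duodenal ferric reductase) was higher by 2.14 ± 0.53 (adjusted p = 0.0293) and Slc40a1 (ferroportin) by 1.19 ± 0.29 (adjusted p = 0.0278). Ankrd37, placed on the same list, was higher by 1.55 ± 0.37 (adjusted p = 0.0254). The call of Slc34a2 was lost in 5 of 15 fits without a single library (highest adjusted p 0.0818 without control 3), that of Cybrd1 lost in 4 of 15 fits without a single library (highest adjusted p 0.0841 without control 2), that of Slc40a1 lost in 4 of 15 fits without a single library (highest adjusted p 0.0739 without control 2) and that of Ankrd37 lost in 3 of 15 fits without a single library (highest adjusted p 0.0707 without control 5). Without the 3 libraries the adjusted p was 0.218 for Slc34a2 and 0.239 for Ankrd37. On fructose alone 2 of 6 calcium and phosphate genes and 3 of 9 genes of the iron list passed, all upward, against 0 on dextrose alone. Over all genes 6.71% passed on fructose and 2.25% on dextrose, both directions together. Slc34a2 had 236 to 501 CPM in fructose libraries, 24.0 to 71.0 in dextrose libraries and 1.61 to 56.8 in controls. Ankrd37 had 12.8 to 18.2, 2.63 to 5.93 and 0.297 to 5.46 CPM in the same order. In both genes dextrose overlapped the controls. The calcium pump gene Atp2b1 was higher by 0.39 ± 0.10 (adjusted p = 0.0308), a call lost in 6 of 15 fits without a single library (highest adjusted p 0.0885 without control 2). Cubn, cubilin, the receptor of the vitamin B12 carrier, fell, with -2.24 ± 0.40 (adjusted p = 0.00446), and fructose minus dextrose was -3.04 ± 0.53 (adjusted p = 0.0045). It had 5.13, 3.81, 6.26, 10.3 and 8.29 CPM on fructose, 36.4, 60.5, 131, 38.8 and 10.9 on dextrose, and 71.4, 73.2, 84.3, 123 and 104 on control, dextrose libraries overlapping controls and all fructose libraries below both. Its adjusted p was 0.0612 without the 3 libraries and 0.367 as 1 group. Rbp2, the enterocyte retinol binding protein, fell, with -0.70 ± 0.11 (adjusted p = 0.000542). Lrat, which esterifies retinol, was lower, with -0.48 ± 0.12 (adjusted p = 0.0261), a call lost in 4 of 15 fits without a single library (highest adjusted p 0.101 without control 3) and without the 3 libraries (adjusted p = 0.121). It had 15.7 to 22.5 CPM in fructose libraries, 36.9 to 58.4 in dextrose libraries and 35.3 to 49.5 in controls, where fructose lay below both other groups and dextrose overlapped the controls; as 1 group its adjusted p was 0.673.

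Other large changes lay outside the groups above. Aqp3 (ENSMUSG00000028435), a channel for water and glycerol named by the size of its change, had 2.21, 1.73, 2.99, 6.10 and 5.07 CPM on fructose, 3.36, 8.13, 2.99, 2.99 and 2.31 on dextrose, and 21.3, 43.1, 28.4, 25.5 and 21.9 on control, no sugar library reaching the lowest control. It fell, with -2.90 ± 0.30 (adjusted p = 3.63e-05). Slc6a3, a dopamine transporter, was another of the 10 largest falls, with -1.99 ± 0.23 (adjusted p = 4.77e-05). In Reg3a, an antimicrobial lectin, the change was 0.50 ± 0.10 (adjusted p = 0.00829), and without the 3 libraries 0.40 ± 0.12 (adjusted p = 0.146). It was the 1 of 11 antimicrobial epithelial genes past the threshold. Reg3a had 301 to 373 CPM in fructose libraries, 194 to 256 in dextrose libraries and 168 to 265 in controls, so that dextrose lay within the range of the controls.

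Clock genes moved both ways. Of 17 tested 4 rose and 4 fell, with a median of -0.23, where 2.70% of all genes rose and 1.94% fell. Without the 3 libraries 0 rose and 1 fell, and with single libraries left out 2 to 4 rose and 1 to 5 fell. Cry2, a repressor of the clock, fell, with -1.20 ± 0.15 (adjusted p = 0.00013). Its relative Cry1 rose by 0.70 ± 0.15 (adjusted p = 0.0125) and Bhlhe40, another repressor, by 0.54 ± 0.11 (adjusted p = 0.00563); without the 3 libraries the adjusted p was 0.111 for Cry1 and 0.0561 for Bhlhe40. Bhlhe40 changed by 0.98 ± 0.12 on fructose and 0.10 ± 0.12 on dextrose, where dextrose and control libraries overlapped, and as 1 group its adjusted p was 0.192. Dbp, an output factor driven by the clock, fell, with -2.42 ± 0.65 (adjusted p = 0.0482), a call lost in 10 of 15 fits without a single library (highest adjusted p 0.168 without control 5). Arntl, which encodes BMAL1, rose by 0.94 ± 0.24 (adjusted p = 0.0359), a call lost in 10 of 15 fits without a single library (highest adjusted p 0.103 without control 5). Without the 3 libraries the adjusted p was 0.514 for Dbp and 0.384 for Arntl, a pair chosen after the values were seen. The glucocorticoid targets Fkbp5 and Zbtb16 were lower, with -2.49 ± 0.63 (adjusted p = 0.0395) for Fkbp5 and -2.44 ± 0.62 (adjusted p = 0.0355) for Zbtb16, the call of Fkbp5 being lost in 11 of 15 fits without a single library (highest adjusted p 0.211 without control 2) and that of Zbtb16 lost in 9 of 15 fits without a single library (highest adjusted p 0.355 without control 2). Without control 2 the change was -1.52 for Fkbp5 and -0.97 for Zbtb16, and without the 3 libraries the adjusted p was 0.141 for Fkbp5 and 0.0516 for Zbtb16. The 10 other targets did not pass. Without the hour of collection of each group, diet and hour cannot be told apart in these genes.

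In other lists few or no genes passed. Among genes of endoplasmic reticulum stress 1 of 20 passed, Herpud1 with -0.64 ± 0.17 (adjusted p = 0.0422), a call lost in 12 of 15 fits without a single library (highest adjusted p 0.154 without control 2) and without the 3 libraries (adjusted p = 0.31). Of 11 heat shock genes 0 passed in edgeR's test or in DESeq2, with 3 at an unadjusted p under 0.05. Of 16 immediate early genes 0 passed in either, with 0 at an unadjusted p under 0.05, and of 9 serine and one-carbon enzymes 0 passed in either, with 2. Of 14 tight junction genes 0 passed in edgeR's test, with 6 at an unadjusted p under 0.05, and DESeq2 called 3. Of 8 genes of bile acid and sterol sensing 1 passed, Nr1h3, which encodes LXR alpha, with -0.33 ± 0.08 (adjusted p = 0.0203), a call lost in 1 of 15 fits without a single library (highest adjusted p 0.0816 without control 2) and without the 3 libraries (adjusted p = 0.0979).

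How far the sugars share the response was tested with fructose minus dextrose in the same fit, which uses no control library. It called 506 genes (3.64% of those tested), 301 higher on fructose than on dextrose (2.17%) and 205 lower (1.48%). Set against the shared controls, 932 genes passed for fructose (6.71%) and 312 for dextrose (2.25%). Of the 644 genes called for the mean of both sugars, 155 were among the 506 (24.1%) and 489 were not. That does not show that the sugars acted alike in those 489. The 155 became 87 without fructose 2, 98 without dextrose 1, 103 without dextrose 2, 96 without dextrose 4 and 60 without the 3 libraries. Fructose was above dextrose in 123 of the 155 and below in 32. In 129 the mean lay further from control on fructose and in 26 on dextrose, and 10 of the 644 had opposite signs. Of the 183 called genes whose sugar libraries all lay on 1 side of all controls, 26 differed between the sugars.

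**Figure D4:**
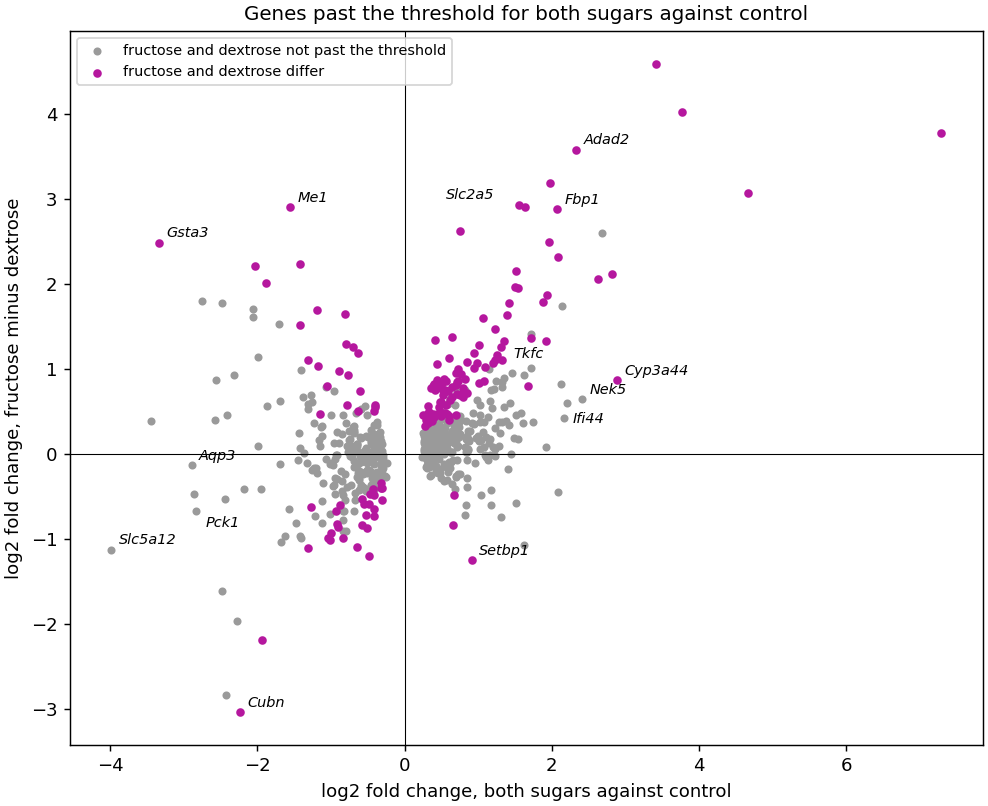
Change on both sugars against control (horizontal, log2) against fructose minus dextrose (vertical, log2) for the 644 called genes; coloured points are the 155 that also differed between the sugars. Slc2a5, Fbp1, Adad2 and Sprr1a lie at the top right, higher on fructose; Gsta3, Ugt2b5 and Me1 lie at the top left, lower against control and lowest on dextrose.

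The genes with the widest gap between the sugars show how a pooled mean can stand for a single sugar. Adad2, of the adenosine deaminase domain family, had 12.4, 14.1, 9.68, 13.1 and 8.76 CPM on fructose, 1.05, 0.611, 1.497, 1.04 and 0.620 on dextrose, and 0.818, 0.357, 0.370, 1.41 and 0.309 on control; dextrose and control overlapped, and the pooled change was 2.33 ± 0.33 (adjusted p = 0.000319) with an adjusted p of 0.101 as 1 group. Sprr1a, a cornified envelope protein, rose by 1.98 ± 0.32 (adjusted p = 0.00109), by 3.57 ± 0.35 on fructose and 0.38 ± 0.36 on dextrose, with an adjusted p of 0.123 as 1 group. On the other side, Setbp1 changed by 1.54 ± 0.27 on dextrose and 0.29 ± 0.28 on fructose, with a pooled 0.91 ± 0.25 (adjusted p = 0.0414) whose call was lost in 13 of 15 fits without a single library (highest adjusted p 0.112 without control 2). As in Adad2 and Sprr1a, fructose was the higher sugar in Ppp1r3g, a glycogen-targeting subunit of protein phosphatase 1. It had 2.15 to 3.81 CPM in fructose libraries, 0.198 to 0.978 in dextrose libraries and 0.119 to 0.450 in controls. Its pooled change was 1.64 ± 0.38 (adjusted p = 0.0159), and without the 3 libraries its adjusted p was 0.139. Other named genes that differed between the sugars also missed the threshold as 1 group, with an adjusted p of 0.378 for Aldh2, 0.258 for Sord, 0.152 for G6pc, 0.139 for Ankrd37, 0.111 for Cry1, 0.101 for Reg3a, 0.126 for Enpep, 0.0742 for Slc6a19, 0.143 for Ppp1r3g and 0.155 for Setbp1. As 1 group it was 0.0597 for Arntl, 0.0839 for Atp2b1, 0.0797 for Cybrd1, 0.356 for Dbp, 0.122 for Fkbp5, 0.0509 for Herpud1, 0.0677 for Slc15a1, 0.0637 for Slc16a1, 0.0755 for Slc16a9, 0.0994 for Slc34a2, 0.141 for Trpm5, 0.081 for Ces1d, 0.0726 for Nfe2l2, 0.052 for Nr1h3, 0.0619 for Thsd1 and 0.0522 for Atp7b, for which fructose minus dextrose did not pass.

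The sugar response of duodenum was set against that of liver in a fit of all 30 libraries. Of 15268 genes tested 66 differed between the tissues (0.432%), 33 with a higher change in duodenum and 33 with a lower one (0.216% each). The number was 137 without liver dextrose 5 and 26 without the 3 duodenum libraries. In liver itself 11 genes passed for the mean of both sugars (0.0720%), against 411 in duodenum in that fit (2.69%). For the difference 1576 genes had an unadjusted p under 0.05. Liver dextrose 5 and liver control 2 stood apart. They had 14.6 and 17.2 CPM of Ckap2, against at most 0.801 in the other liver libraries. Their part in the count of 11 was not tested. Where 5 libraries are left out below, these 2 join the 3 of duodenum. Fbp1 differed most firmly: its change was 2.08 ± 0.12 in duodenum and 0.07 ± 0.11 in liver, a difference of 2.01 ± 0.15 (adjusted p = 2.58e-09). Of the 39 interferon genes 2, Bst2 and Ifit1, had a higher change in duodenum than in liver, and 0 had a lower one. Bst2 rose by 1.01 ± 0.12 in duodenum and 0.07 ± 0.12 in liver (adjusted p = 0.00596 for the difference). Ifit1 rose by 1.16 ± 0.18 in duodenum and 0.08 ± 0.18 in liver (adjusted p = 0.0363). The difference for Ifit1 missed the threshold in 17 of 30 fits without a single library (highest adjusted p 0.0770 without liver control 5) and without the 3 libraries (adjusted p = 0.223). The difference missed the threshold for Ifi44 (adjusted p = 0.0528).

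Of the 31 conjugating enzymes 3 had a lower change in duodenum than in liver and 0 a higher one; Mgst2 did not pass (adjusted p = 0.395). Gsta3 changed by -3.33 ± 0.31 in duodenum and -0.10 ± 0.29 in liver (adjusted p = 0.000276), Gstm1 by -2.57 ± 0.25 and -0.44 ± 0.26 (adjusted p = 0.00596), Ugt2b5 by -2.02 ± 0.18 and -0.34 ± 0.18 (adjusted p = 0.00187) and Gclc by -1.13 ± 0.16 and 0.24 ± 0.17 (adjusted p = 0.00475), duodenum first in each. Me1 changed by -1.55 ± 0.30 in duodenum and 0.80 ± 0.32 in liver (adjusted p = 0.011). Klf15, a factor of amino acid and glucose metabolism, changed by -2.42 ± 0.34 in duodenum and -0.23 ± 0.30 in liver (adjusted p = 0.0269), a difference that missed the threshold without the 3 libraries (adjusted p = 0.0598) and without duodenum control 2 (adjusted p = 0.0715). Nek5 was at most 0.492 CPM in any liver library, so that its difference of 2.87 ± 0.53 (adjusted p = 0.0101) rests on the duodenum. For Slc2a5 the difference was 1.45 ± 0.54 (adjusted p = 0.31), not past the threshold.

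**Figure D5:**
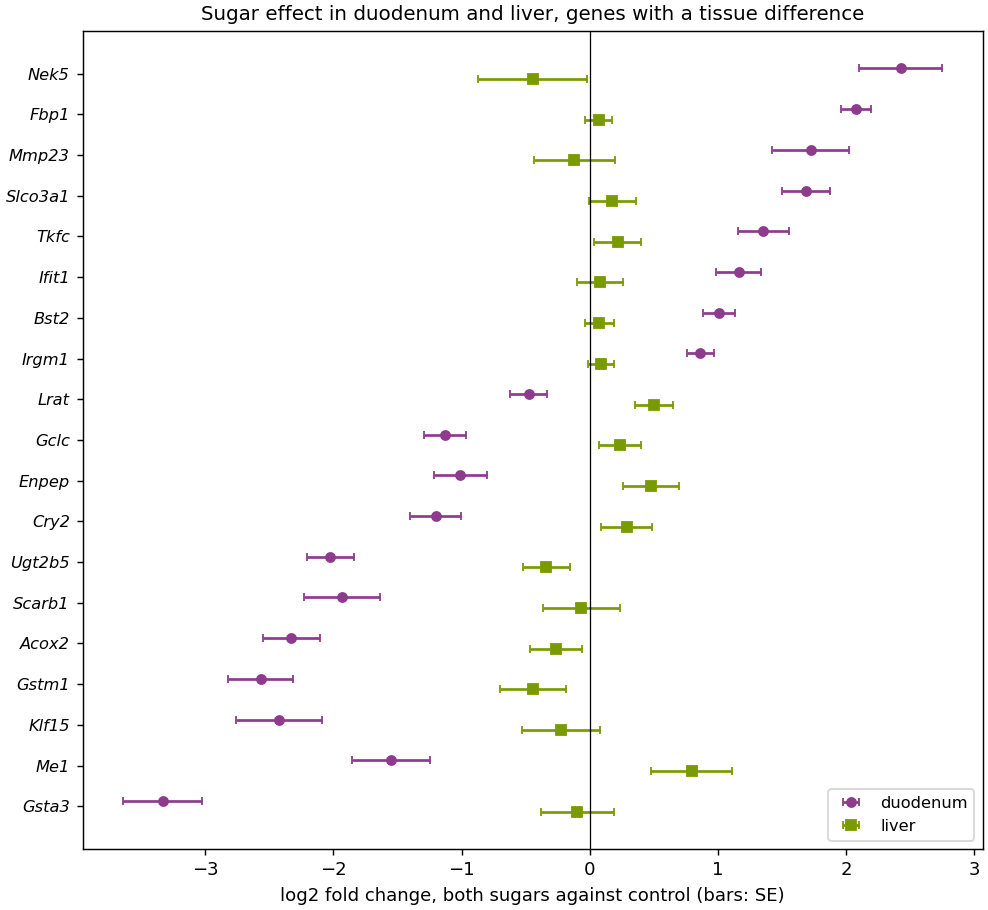
Log2 fold change of both sugars against control in duodenum and in liver for 19 named genes that differed between the tissues, with SE as bars, duodenum above liver for each gene. Fbp1, at 2.08 in duodenum and 0.07 in liver, and Gsta3, at -3.33 in duodenum and -0.10 in liver, are among the widest gaps.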

How the data were processed

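Poly(A)-selected RNA was sequenced with a NEBNext Ultra kit, per the labels' protocols. The authors deposited raw read counts per gene for 47069 genes and FPKM values for the same genes (counts per gene length and library total). The submitters' processing notes name HTSeq 0.6.1, DESeq 1.18.0, Bowtie2 2.2.3 and TopHat2 2.0.12. Which build and annotation were used and whether reads were counted by strand are not given in the sources used here, and overlapping genes and near-identical copies are therefore uncertain.

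The deposited counts were fitted with edgeR 4.0.16 (R 4.3.3): filterByExpr by group, TMM factors, robust glmQLFit of the 3 diet groups in 15 libraries, and a two-sided quasi-likelihood F test of the mean of fructose and dextrose minus control. P-values were Benjamini-Hochberg adjusted over all genes tested, with a threshold of 0.05. The SE of a log2 fold change is its size divided by the square root of F. The tissue difference is the interaction contrast of a fit to 30 libraries in 6 groups. No library was dropped or imputed in the main fits. The code was tested on simulated data. Replicate numbers come with no statement that they pair libraries, and no block was used in the main fits. No 2 libraries of a group were close enough to be a single library deposited again: chi-square over degrees of freedom was 11.9 or more. Depth makes counting error small for all but the lowest genes.

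The comparison, 32 gene lists and 22 marker lists were chosen with earlier results of these data known. No test of a list was made: a list is described by its counts and median beside all genes. Named genes had to pass the threshold, average at least 1 CPM and have all sugar libraries on 1 side of all controls, of which the 10 that rose most and the 10 that fell most were taken. To these were added, for each list, up to 3 called members by smallest p; the 4 genes furthest above and below 0 in fructose minus dextrose, and the 4 largest tissue differences each way; and 11 fixed genes. Predicted genes and pseudogenes were left out, and a few other genes are not reported here. Alternatives were RLE and upper-quartile factors, no filter and a filter of 1 CPM in 5 libraries, DESeq2 1.42.0, limma 3.58.1 on log2(FPKM + 1) and log2(FPKM + 0.1), voom with quality weights, a replicate block, all sugar libraries as 1 group, each library left out, and 3 or 5 libraries left out together.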

Additional observations from a re-analysis of the deposited data

Results flagged for a closer look

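In 21 of 249 sets of 5 libraries, a gene's level in a single library lay far from the other 4 by Dixon's test; chance flags about 1 in 20 such sets. Control 2 was high for Acox2 (25.4 CPM, others 8.71 to 9.67), Cd36 (189, others 67.2 to 91.7), Enpep (1557, others 575 to 847) and Zbtb16 (12.9, others 0.338 to 2.45), and low for Ppp1r3g (0.119, others 0.370 to 0.450). Control 1 was high for Gsta3 (60.4, others 10.2 to 22.7), Cbr3 (23.4, others 2.78 to 5.06), Ugt2b5 (113, others 48.1 to 57.2) and Khk (1349, others 1045 to 1108). Control 4 was high for Fabp2 (6690, others 3454 to 4260), control 5 low for Igtp (24.0, others 28.8 to 29.3) and control 3 high for Cybrd1 (2.40, others 0.503 to 0.865). The falls of Acox2, Cd36, Gsta3, Cbr3, Ugt2b5 and Fabp2 and the rise of Khk kept their call in every fit that left out a single library.

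Among sugar libraries, fructose 3 was high for Cybrd1 (23.5 CPM, others 3.98 to 7.17) and Cbr3 (1.34, others 0.607 to 0.715), fructose 2 for Bhlhe40 (182, others 116 to 133) and fructose 4 for Fkbp5 (25.9, others 6.57 to 11.9). Fructose 4 was low for Me1 (24.2, others 38.2 to 41.7). Dextrose 2 was high for Aqp3 (8.13, others 2.31 to 3.36) and Ppp1r3g (0.978, others 0.198 to 0.312), dextrose 3 for Gclc (29.9, others 18.2 to 21.5) and dextrose 1 for Slc16a3 (158, others 116 to 128).

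The response to both sugars differed between duodenum and liver, by the interaction test of edgeR with adjusted p under the threshold, for 23 of the genes named by the rule. The duodenum minus liver difference was positive for Fbp1 (2.01), Slco3a1 (1.51), Bst2 (0.94), Nek5 (2.87), Irgm1 (0.77), Cfap61 (6.56), Mgat4c (5.85), Ifit1 (1.09), Rbakdn (5.60), Tkfc (1.14) and Mmp23 (1.84). It was negative for Gsta3 (-3.23), Acox2 (-2.07), Ugt2b5 (-1.68), Gclc (-1.37), Gstm1 (-2.12), Cry2 (-1.49), Me1 (-2.34), Enpep (-1.49), Klf15 (-2.20), Lrat (-0.98), Alb (-6.62) and Scarb1 (-1.87). Albumin is a hepatocyte gene, and its adjusted p was 0.974 without the 3 duodenum libraries, among them control 5 with its hepatocyte markers. Liver levels of Cfap61, Mgat4c and Rbakdn were at or near 0. The adjusted p without liver control 3 was 0.327 for Cfap61, 0.217 for Mgat4c and 0.278 for Rbakdn, and without the 3 duodenum libraries it was 0.0741 for Cfap61 and 0.136 for Rbakdn. For Rbakdn the difference missed the threshold in 21 of 30 fits without a single library. Without liver control 3 the difference was 4.03 for Cfap61. The duodenum change of Rbakdn had an adjusted p of 0.066 without the 3 libraries.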

How the results depend on the processing

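Without the 3 duodenum libraries that stood apart, 237 genes passed for the mean of both sugars against 644. Of these 237, 60 also differed between the sugars, against 155. All sugar libraries lay on 1 side of all controls in 357 genes against 194, and 26 against 66 differed between the tissues. With all sugar libraries as 1 group 370 genes passed. Genes differing also between the sugars numbered 306 with voom. The tissue difference gave 242 genes in DESeq2, 182 with limma on log2(FPKM + 1) and 105 on log2(FPKM + 0.1). Leaving out each library in turn gave 434 to 630 genes for the mean of both sugars. It gave 87 to 157 that also differed between the sugars, 194 to 299 separated, and 47 to 137 for the tissue difference. The other counts stayed within 1.5 times of the main ones. For the mean of both sugars 531 passed with no filter, 609 with RLE factors, 618 with the stricter filter and 884 in DESeq2. Of the 884, 642 were among the 644. With the replicate block 511 genes passed, 484 of them among the 644; same-numbered libraries correlated at -0.233 to 0.267 in their deviations from group means, over 0.1 in 6 of 15 pairs, and 2 of 15 libraries matched their own number best, so the numbers were not taken to pair samples.

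For single genes, 3289 values kept direction and side of the threshold, 418 lost the call, 8 gained it and 8 changed sign. The sign changes were in genes near 0 or resting on a library: Slc2a2 was -0.039 with voom and -0.10 to 0.14 with a library left out, Txnip -0.21 to 0.00425 with a library left out, and the tissue difference of Alb was 0.22 without the 3 libraries and 0.21 without 5. For genes whose call was lost the cause was not tested.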

Other observations

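Water and glycerol channels other than Aqp3 were looked up after the values were seen. Aqp1 had 37.5, 26.1, 25.4, 22.1 and 17.5 CPM on fructose, 37.4, 57.6, 57.0, 40.6 and 33.7 on dextrose, and 85.5, 152, 59.3, 99.1 and 77.7 on control, every sugar library below every control, and fell, with -1.47 ± 0.20 (adjusted p = 0.000396) by edgeR's quasi-likelihood test. Aqp7, which passes glycerol, had 4.36, 2.88, 6.95, 5.63 and 5.13 CPM on fructose, 5.67, 10.4, 7.86, 4.68 and 4.84 on dextrose, and 21.8, 20.5, 25.4, 24.4 and 19.7 on control, again without overlap, and fell, with -1.95 ± 0.18 (adjusted p = 9.66e-06). Aqp8 was lower, with -1.42 ± 0.37 (adjusted p = 0.0355), a call lost in 9 of 15 fits without a single library (highest adjusted p 0.105 without control 1) and without the 3 libraries (adjusted p = 0.111); it changed by -0.30 ± 0.42 on fructose and -2.54 ± 0.48 on dextrose, and as 1 group its adjusted p was 0.467. Aqp4 and Aqp11 changed by 0.12 and -0.04 and did not pass.

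Further large changes lay outside the lists and were likewise chosen after the values were seen. Slc28a1, a concentrative nucleoside transporter, fell, with -1.89 ± 0.23 (adjusted p = 0.000135), and its adjusted p was 0.112 with the sugar libraries as 1 group. Glud1, glutamate dehydrogenase, fell, with -0.92 ± 0.12 (adjusted p = 0.000107), Maoa, monoamine oxidase A, with -0.93 ± 0.11 (adjusted p = 3.78e-05), and Ace, angiotensin-converting enzyme, with -1.31 ± 0.17 (adjusted p = 0.000141). Hcn3, a cation channel, rose by 1.94 ± 0.20 (adjusted p = 1.53e-05), and Naip1, an inflammasome sensor of bacterial proteins, by 1.00 ± 0.09 (adjusted p = 5.27e-06). Rnf213 and Lgals9, which interferon also induces, rose by 0.84 ± 0.13 (adjusted p = 0.000609) and 0.52 ± 0.08 (adjusted p = 0.000785).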
